A study of Mus musculus with 10 samples.

Results

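Elastin and the proteins that assemble elastic fibres were followed in OP9 stromal cells grown in 3 dimensions or on a flat surface. The genes were chosen by name as *Eln*, *Fbn1*, *Fbn2*, *Fbln1*, *Fbln5*, *Efemp2*, *Emilin1*, *Mfap4*, *Mfap5* and *Lox*, and all 10 were found among the 26888 genes listed. RNA-seq libraries of OP9 cells were available from 6 reaggregates and 4 flat cultures, and the study compared these culture forms. OP9 is a mouse line of stromal cells derived from calvaria, of strain (C57BL/6xC3H)F2-op/op, and every library came from this line, in which both copies of the gene for macrophage colony-stimulating factor carry the op mutation. The labels call the calvaria foetal, whereas the study describes its donors as newborn. Reaggregates had been formed from dispersed, pelleted cells and kept for 48 h on nitrocellulose filters with 0.8 µm pores, where medium meets gas. Reaggregates 2, 4 and 6 received interleukin 3 (IL-3), at 200 µg/µl according to the labels, and reaggregates 1, 3 and 5 did not. Flat cultures lay under medium, and their time in culture is not given in the labels. For flat cultures 2 and 4 the labels add the de Bruijn lab, while flat cultures 1 and 3 and all reaggregates carry no such label. Dispersal, pelleting, the filter and the position at the gas phase were shared by all reaggregates. The study also describes dissociation of the reaggregates with collagenase/dispase before RNA extraction. The parts of these steps in any difference from flat cultures cannot be told apart.

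Elastic fibres consist of a core of cross-linked elastin surrounded by a mantle of fibrillin microfibrils. Fibulins and EMILIN-1 bring the secreted elastin monomers onto the microfibrils, and lysyl oxidase joins the monomers into a polymer that lets arteries, lung and skin recoil. In the vessel wall most elastin is made by smooth muscle cells, and fibroblasts and other stromal cells also secrete it.

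Levels are given in RPM, reads on a gene after scaling the reads on all genes of a library to 1e6. With the commonest value above 0 in a library read as 1 read, libraries of reaggregates held 7.35 to 9.43 M reads on genes (M, 1e6) and those of flat cultures 8.26 to 8.70 M. An amount of 3 reads, used below as the floor of a library, corresponded to between 0.318 and 0.408 RPM, which covers counting error only. The groups were compared by limma on log2(RPM + 0.5) in the 16933 genes that exceeded 0.5 RPM in 1 library or more, and fold changes on this scale understate changes of genes with few reads. A gene was called where it differed by 2-fold or more with an adjusted p (Benjamini-Hochberg, over all genes tested) no higher than 0.05. The labels do not say whether the libraries came from separate cultures, so p-values measure only the spread between these libraries. Reaggregates 1 and 2, 3 and 4, and 5 and 6 were close to each other: the median absolute difference in log2(RPM + 0.5) within these 3 pairs was between 0.02 and 0.32 for the 9 genes detected, against between 0.11 and 1.88 in the 12 other pairs of reaggregates. In genes of 200 to 1000 RPM the mean chi-square per gene was 6.48, 36.1 and 21.7 within these pairs and between 83.4 and 270 in the 12 other pairs, where counting noise alone gives about 1. The 6 reaggregates were kept as separate libraries because the labels list them so, and p-values over 6 are too small where the libraries of a pair are not independent. Results that changed when the pairs were averaged, as 3 samples, are named below.

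The label of a stromal line was checked against marker genes. *Pdgfra*, *Pdgfrb*, *Vcam1*, *Col1a1* and *Col1a2* were at 42.9 RPM or more in every library, whereas *Thy1* was at no more than 0.359 RPM, at or below the floor in each library. *Mcam*, which encodes CD146, was low, at between 1.59 and 9.10 RPM, with groups that overlapped. The study reports OP9 cells as positive for CD146 on the cell surface, which RNA levels do not measure. The pan-leukocyte gene *Ptprc* and the macrophage gene *Emr1* were listed at 0 in all 10 libraries, and the endothelial gene *Cdh5* reached at most 0.00702 RPM. The cartilage gene *Col2a1*, at between 200 and 286 RPM in reaggregates and between 777 and 1520 RPM in flat cultures, was present in all libraries.

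In reaggregates 4 of the 9 elastic fibre genes tested were higher than in flat cultures, namely *Eln*, *Fbln5*, *Emilin1* and *Mfap4*, and 1 gene, *Mfap5*, was lower. Of all genes tested, 7.32% were called higher and 6.53% lower. The median log2 fold change of the 9 genes was 1.26, beside 0.04 over all genes tested. Every reaggregate lay above every flat culture for the same 4 genes, as in 7.8% of all genes tested, and below every flat culture for *Efemp2* and *Mfap5*, as in 11.4% of all genes tested. For *Mfap4*, reaggregates 5 and 6 were under the floor, at 0.227 and 0.111 RPM, so their separation from flat cultures is within counting error. *Mfap4* passed the filter through the reaggregates alone and could only have been higher in them, so the counts and the median above lean upward through it. The higher genes that could have gone either way were *Eln*, *Fbln5* and *Emilin1*. With consecutive reaggregates averaged, *Eln* was the only one of the 4 higher genes still called and *Mfap5* was still called lower, beside 1.84% of all genes called higher and 2.53% lower. In bulk RNA, fewer cells that express a gene and less RNA per cell cannot be told apart.

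**Figure D1:**
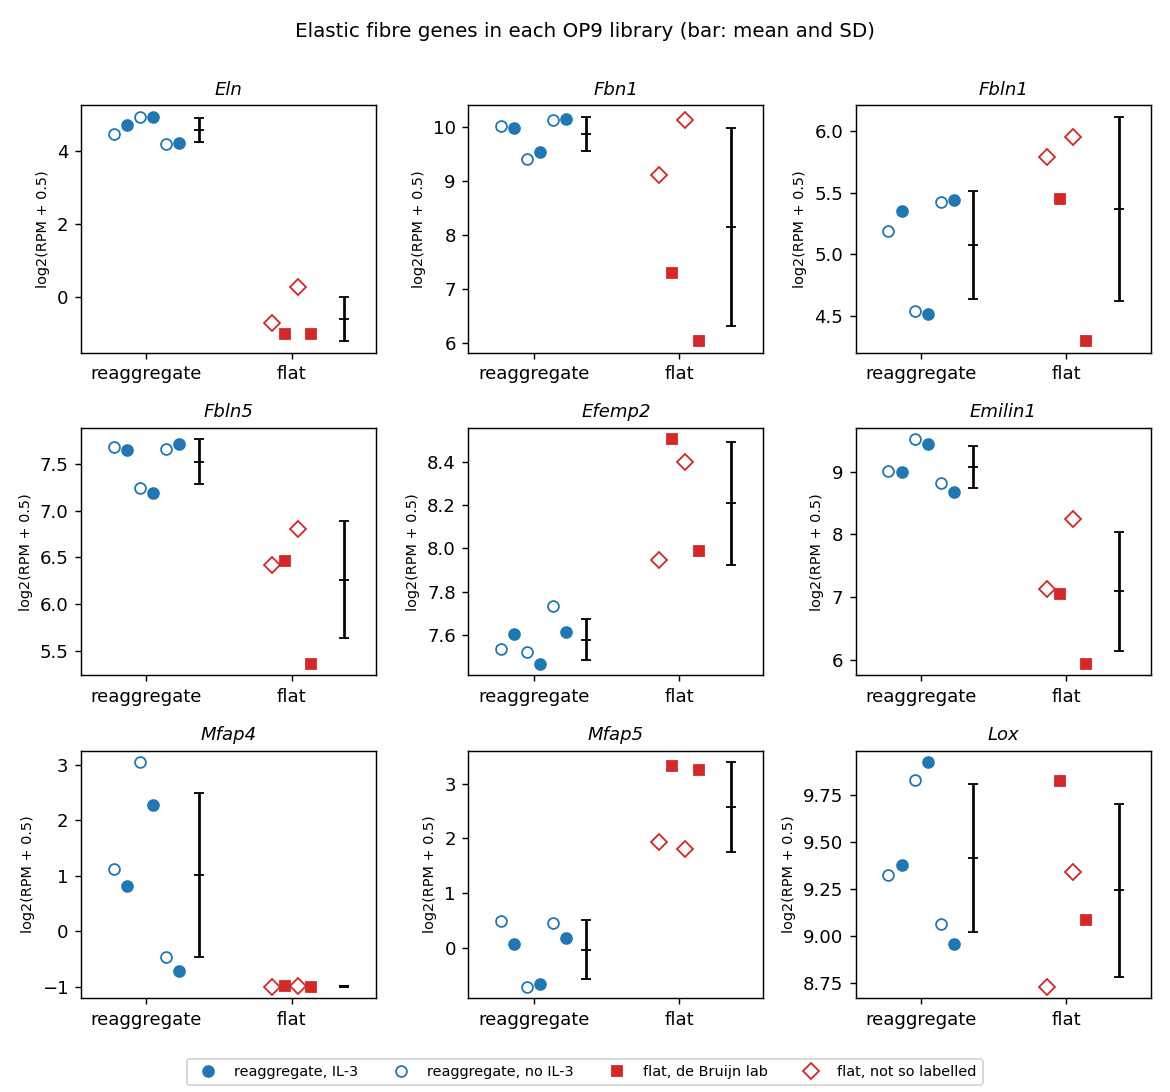
Level of 9 elastic fibre genes as log2(RPM + 0.5), a log scale, in each of 6 reaggregates (circles, filled with IL-3) and 4 flat cultures (squares, de Bruijn lab; diamonds, not so labelled), with the mean and SD of each group as a bar. Groups are separate for *Eln*, *Fbln5*, *Efemp2*, *Emilin1*, *Mfap4* and *Mfap5* and overlap for *Fbn1*, *Fbln1* and *Lox*, and each panel has its own range.

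*Eln* encodes tropoelastin, the monomer of the elastic core, and lies on chromosome 5 (135179651 to 135223111, minus strand, NCBI37/mm9, as are all gene coordinates below). It was at between 17.7 and 30.2 RPM in reaggregates, with a median of 23.7 RPM, and at 0.115, 0, 0.719 and 0 RPM in flat cultures 1 to 4. Flat culture 3, with 6 reads, was the only flat culture above the floor, and flat cultures 2 and 4 had no read. Summed over libraries, 1207 reads fell on *Eln* in reaggregates and 7 in flat cultures. The reaggregates averaged 24.0 ± 5.59 RPM (SD, n = 6), and the flat cultures 0.208 ± 0.345 RPM (SD, n = 4). *Eln* differed by 5.18 on the log2 scale (SE 0.292, limma adjusted p = 7.57e-06), and the call held under every alternative setting that was run. *Eln* had been named by the study from these same libraries, so its direction is not independent evidence.

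The 5 genes whose log2(RPM + 0.5) over the 10 libraries was most like that of *Eln*, among 11660 others with a mean of at least 5 RPM, were *Fmnl3*, *Nmnat2*, *P2rx4*, *Klf11* and *AC102618.2*. Their Pearson r with *Eln* was between 0.987 and 0.996, a description over 10 libraries that fall into 2 groups. For *Klf11*, a transcription factor, the mean of reaggregates was 46.5 ± 4.99 RPM (SD, n = 6) and that of flat cultures 8.79 ± 2.94 RPM (SD, n = 4). *Fmnl3*, a formin that acts on actin filaments, was at 318 ± 51.4 RPM and 73.2 ± 15.3 RPM.

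Fibrillins form the microfibrils. *Fbn1* (chromosome 2, 125126330 to 125333729, minus strand) was at between 684 and 1140 RPM in reaggregates, with a median of 1030 RPM, and at 554, 158, 1130 and 65.2 RPM in flat cultures 1 to 4. Flat culture 3 lay within the range of the reaggregates, flat culture 1 lay below it, and the flat cultures labelled de Bruijn lab were lowest. At a log2 difference of 1.73 (SE 0.627, limma adjusted p = 0.0567), *Fbn1* was not called. It was called without flat culture 3 (log2 fold change 2.39, limma adjusted p = 0.00426), without flat culture 1 (2.05, limma adjusted p = 0.0487) and with median-ratio scaling of the RPM (1.72, limma adjusted p = 0.0494). The log2 fold change of *Fbn1* fell to 1.03 without flat culture 4 (limma adjusted p = 0.165) and to 1.45 without flat culture 2 (limma adjusted p = 0.143). *Fbn2* (chromosome 18, 58168277 to 58369580, minus strand), a fibrillin of developing tissues, was listed at 0 in all 10 libraries and did not pass the filter.

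Fibulins bind elastin and microfibrils. *Fbln5* (chromosome 12, 102984775 to 103057265, minus strand), which carries elastin onto microfibrils, was at between 145 and 209 RPM in reaggregates, with a median of 201 RPM, and at 85.1, 87.7, 111 and 40.5 RPM in flat cultures 1 to 4. The groups did not overlap, and flat culture 4 stood below the other flat cultures. *Fbln5* had a log2 difference of 1.26 (SE 0.249, limma adjusted p = 0.00445). Without flat culture 4 it was 0.96, short of the 2-fold threshold, and with consecutive reaggregates averaged the limma adjusted p was 0.0682. *Efemp2* (chromosome 19, 5473973 to 5481853, plus strand) encodes fibulin-4, which links lysyl oxidase to tropoelastin. It was at between 176 and 212 RPM in reaggregates, with a median of 190 RPM, and at 246, 363, 338 and 253 RPM in flat cultures 1 to 4. All reaggregates lay below all flat cultures, and the log2 difference, −0.63 (SE 0.144, limma adjusted p = 0.00853), was under the 2-fold threshold. With consecutive reaggregates averaged its limma adjusted p was 0.111, within a range from 0.00504 to 0.199 over all alternatives. *Fbln1* (chromosome 15, 85036379 to 85116965, plus strand), a fibulin of basement membranes and elastic tissue, was at between 22.4 and 43.0 RPM in reaggregates and at 54.8, 43.2, 61.4 and 19.1 RPM in flat cultures 1 to 4. Flat culture 4 was the lowest of all libraries and flat cultures 1 to 3 were the highest, and the difference was not called (log2 fold change −0.29, limma adjusted p = 0.507).

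*Fbln5* and *Efemp2* moved apart, and their ratio was taken within each library, after adding 0.5 RPM to both. The log2 ratio of *Fbln5* to *Efemp2* was between −0.28 and 0.15 in reaggregates, with a mean of −0.06 (SD 0.187, n = 6). In flat cultures 1 to 4 it was −1.53, −2.04, −1.60 and −2.63, with a mean of −1.95 (SD 0.506, n = 4). The difference of 1.89 had an exact permutation p of 0.00476 (two-sided), the smallest that the 210 splits into 6 and 4 libraries can give, with all 6 reaggregates above all 4 flat cultures. Since neither gene alone overlapped between the groups, and the genes differed in opposite directions, the ratio had to separate them too, and this p is no further evidence. The exact permutation p was 0.0286 with consecutive reaggregates averaged, within a range from 0.00476 to 0.0357 over all alternatives.

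*Emilin1* (chromosome 5, 31215775 to 31223651, plus strand) encodes a glycoprotein found where elastin meets the microfibrils. It was at between 408 and 731 RPM in reaggregates, with a median of 512 RPM, and at 140, 132, 302 and 60.4 RPM in flat cultures 1 to 4. The groups did not overlap, and flat culture 3 came closest to the reaggregates. Its log2 fold change was 1.99 (SE 0.357, limma adjusted p = 0.00279). With consecutive reaggregates averaged the limma adjusted p was 0.0531, within a range from 0.000142 to 0.132 over all alternatives.

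Microfibril-associated proteins were represented by *Mfap4* and *Mfap5*. *Mfap4* (chromosome 11, 61298933 to 61302402, plus strand), which binds elastin and fibrillin, was at 1.68, 1.25, 7.79, 4.35, 0.227 and 0.111 RPM in reaggregates 1 to 6 and at no more than 0.00636 RPM in flat cultures. Reaggregates 3 and 4 were highest, reaggregates 5 and 6 lay under the floor, and no flat culture reached 1 read. Against the mean floor of the flat cultures, 0.356 RPM, the reaggregate mean of 2.57 RPM was at least 7.21-fold higher. Without reaggregate 3 the mean was 1.52 RPM, at least 4.28-fold higher. *Mfap4* was called at a log2 difference of 2.01 (SE 0.645, limma adjusted p = 0.0371), but not without any 1 of reaggregates 1, 2, 3 and 4 or of flat cultures 1, 2 and 4, where the limma adjusted p was between 0.0527 and 0.0881. Exons of *Mfap4* overlap those of *Mapk7* on the other strand, and reads there cannot be told apart without strand. *Mapk7* was at a mean of 33.4 RPM in reaggregates and 28.7 RPM in flat cultures. *Mfap5* (chromosome 6, 122455863 to 122479308, plus strand), which binds fibrillin microfibrils, was at between 0.109 and 0.898 RPM in reaggregates, with a median of 0.591 RPM, and at 3.34, 9.54, 2.99 and 8.99 RPM in flat cultures 1 to 4. Flat cultures 2 and 4, of the de Bruijn lab, were higher than flat cultures 1 and 3, and all 4 were above every reaggregate. Reaggregates 3 and 4 held 1 read each, and the other reaggregates between 4 and 8. *Mfap5* had a log2 fold change, reaggregate minus flat, of −2.61 (SE 0.387, limma adjusted p = 0.000978).

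*Lox* (chromosome 18, 52675723 to 52689521, minus strand) encodes lysyl oxidase, the copper enzyme that starts cross-linking of elastin and collagen. It was at between 497 and 973 RPM in reaggregates, with a median of 653 RPM, and at 424, 906, 647 and 542 RPM in flat cultures 1 to 4. The groups overlapped over most of their range. Its log2 difference, 0.17 (SE 0.254, limma adjusted p = 0.627), was not called, and its sign turned without flat culture 1.

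Levels were compared between genes per kilobase (kb) of merged exons, in the order of their means. In reaggregates *Lox* stood first at 150 ± 41.8 RPM per kb (SD, n = 6), followed by *Emilin1* at 112 ± 26.6, *Fbn1* at 79.2 ± 16.1 and *Efemp2* at 72.1 ± 4.75 RPM per kb. The ranges of neighbours in this order overlapped as far as *Efemp2*. Within libraries, *Lox* was above *Emilin1* in every reaggregate. *Emilin1* was below *Fbn1* in reaggregates 5 and 6, and *Fbn1* below *Efemp2* in reaggregates 3 and 4. *Fbln5*, at 31.8 ± 5.0 RPM per kb, was apart from the genes on either side, and *Eln*, at 9.27 ± 2.16 RPM per kb, overlapped with *Fbln1* at 7.90 ± 2.20 RPM per kb. *Mfap4*, at 1.34 ± 1.55 RPM per kb, and *Mfap5*, at 0.148 ± 0.0965 RPM per kb, came last and overlapped. In flat cultures *Lox*, at 134 ± 43.7 RPM per kb (SD, n = 4), and *Efemp2*, at 113 ± 22.4, had the highest means, and *Lox* was above *Efemp2* in flat cultures 2, 3 and 4 but not in flat culture 1, at 90.3 against 92.9 RPM per kb. *Fbn1*, at 39.3 ± 39.9 RPM per kb, and *Emilin1*, at 32.1 ± 20.7, came next in an order that differed with the label. *Emilin1* was above *Fbn1* in the flat cultures labelled de Bruijn lab, at 26.7 against 13.0 RPM per kb in flat culture 2 and 12.2 against 5.38 in flat culture 4, and below it in flat cultures 1 and 3, at 28.4 against 45.7 and 61.2 against 93.2 RPM per kb. In flat cultures 2 and 4 *Fbn1* was also below *Fbln5*. *Fbln5*, at 13.9 ± 5.05 RPM per kb, and *Fbln1*, at 10.2 ± 4.26 RPM per kb, overlapped in range there, with *Fbln5* above *Fbln1* within each flat culture. *Mfap5* followed at 1.73 ± 0.984 RPM per kb, and *Eln* and *Mfap4* were last.

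IL-3 was compared within the reaggregates, 3 with and 3 without it. No gene of the table was called by limma (0% of genes tested), and 68 genes had an unadjusted p under 0.05, none of them among the 9 elastic fibre genes. For *Eln* the means were 24.7 ± 5.99 RPM with IL-3 and 23.2 ± 6.37 RPM without it (SD, n = 3 each). The log2 differences of the 9 genes, with minus without IL-3, lay between −0.45 for *Mfap4* and 0.09 for *Eln*, and in all 9 the groups overlapped. With consecutive reaggregates, 1 with and 1 without IL-3, as a block, limma again called no gene, and 564 genes had an unadjusted p under 0.05, none of them among the 9, where *Mfap4* had the lowest (limma unadjusted p = 0.0529). Within these pairs *Mfap4* was lower with IL-3 in all 3, by log2 differences of −0.32, −0.77 and −0.25, and *Emilin1* in all 3, by −0.02, −0.07 and −0.15, as were 8.78% of all genes tested. The −0.25 of *Mfap4* was between reaggregates 5 and 6, both under the floor, with 2.1 and 1.0 reads. No elastic fibre gene was higher in all 3 pairs, as 12.7% of all genes tested were. The labels do not pair these libraries.

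Among the flat cultures, those labelled de Bruijn lab were compared with the others, 2 libraries against 2. Of all genes tested 1.82% were called higher and 3.87% lower in the cells labelled de Bruijn lab. *Fbn1* was lower in them, at 158 and 65.2 RPM against 554 and 1130 RPM, a log2 difference of −2.96 (SE 0.566, limma adjusted p = 0.0482), and no other elastic fibre gene was called. That call was lost when any 1 of the 4 flat cultures was left out, where 1 library is assumed to vary like the others. *Mfap5* was at 9.54 and 8.99 RPM against 3.34 and 2.99 RPM (log2 difference 1.41, limma adjusted p = 0.0841). Since no label names where the reaggregated cells came from, the reaggregates were set against each label in turn, with the same reaggregates in both. *Fbn1* had a log2 fold change of 3.21 against the flat cultures labelled de Bruijn lab and 0.25 against the others. *Fbln1* had log2 fold changes of 0.21 and −0.79, and *Lox* of −0.04 and 0.38, and neither gene was called against either label. *Eln*, *Emilin1* and *Mfap5* were called against both labels, *Fbln5* only against the de Bruijn lab cultures, and *Mfap4* against neither. These calls count every reaggregate as a separate library. With consecutive reaggregates averaged, only *Eln* stayed called against the flat cultures without that label (limma adjusted p = 0.0146). *Emilin1* (limma adjusted p = 0.132) and *Mfap5* (limma adjusted p = 0.0595) were not called there, in a setting added after the data were seen. Averaged reaggregates were not tested against the de Bruijn lab cultures alone.

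**Figure D2:**
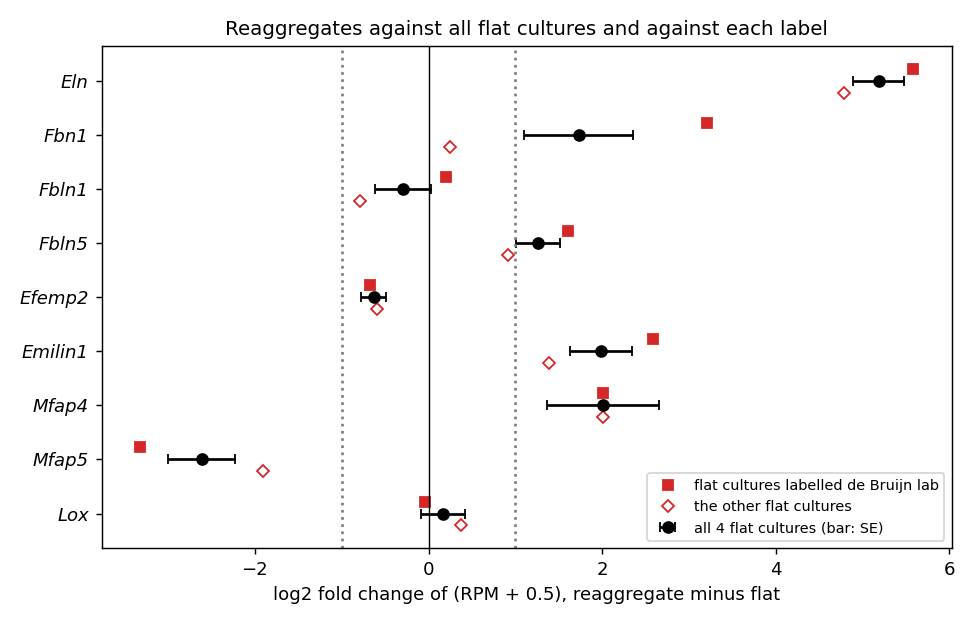
Log2 fold change of (RPM + 0.5) between reaggregates and flat cultures for 9 elastic fibre genes, against all 4 flat cultures (black, bar: SE), those labelled de Bruijn lab (squares) and the others (diamonds), with dotted lines at the 2-fold threshold. *Eln*, at 5.18, has the largest difference of the 9 genes, and *Fbn1* ranges from 0.25 to 3.21 with the label of the flat cultures.

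Other genes of the elastic fibre and its turnover were taken from 4 lists that hold 50 genes, of which 47 were listed and 40 tested. Of these, 10 were called higher and 4 lower in reaggregates, with a median log2 fold change of 0.57, beside 7.32% of all genes called higher, 6.53% lower and a median of 0.04, the background also of the counts for each list below. With consecutive reaggregates averaged, 6 were called higher and 3 lower, beside 1.84% and 2.53% of all genes. The calls lost there were those of *Ltbp3*, *Ltbp4*, *Adamts10* and *Bmp1* among the higher genes and of *Efemp1* among the lower, with limma adjusted p between 0.0514 and 0.150. Of the 40 genes tested, *Adamtsl2*, *Adamts17* and *Prtn3* passed the filter through reaggregates alone. The median of 0.57 leans upward through these genes, none of which was called.

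Of 13 other microfibril and latent TGF-beta binding genes tested, 3 were higher and none lower. *Ltbp3*, which holds latent TGF-beta, averaged 358 ± 50.7 RPM (SD, n = 6) in the reaggregates, beside 169 ± 67.7 RPM (SD, n = 4) in the flat cultures, and *Ltbp4*, which also helps elastin assembly, at 54.2 ± 17.8 and 16.4 ± 9.23 RPM. *Adamts10*, a metalloprotease of microfibrils, was at 86.5 ± 42.7 and 26.9 ± 24.0 RPM, with groups that overlapped. *Adamts10* was not called without any 1 of reaggregates 1 to 4 or of flat cultures 1, 2 and 4 (limma adjusted p between 0.0566 and 0.0859), and *Ltbp3* fell short of 2-fold without flat culture 1, at a log2 fold change of 0.85. Among 5 other fibulin and EMILIN genes tested, *Fbln7* was higher, at between 19.7 and 51.5 RPM in reaggregates and 0.806, 2.86, 2.99 and 1.70 RPM in flat cultures 1 to 4. *Efemp1*, or fibulin-3, was lower, at 199 ± 90.6 RPM in reaggregates and 436 ± 179 RPM in flat cultures, a call that was lost without any 1 of reaggregates 1 to 4 or of flat cultures 1, 2 and 4 (limma adjusted p between 0.0516 and 0.140). *Fbln2* was not called, and stood at 444, 5750, 914 and 2850 RPM in flat cultures 1 to 4 and between 715 and 802 RPM in reaggregates.

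Of 15 other cross-linking and assembly genes, 3 were higher and 3 lower. The lower genes were all relatives of lysyl oxidase: *Loxl2* at 3.69 ± 0.736 RPM in reaggregates (SD, n = 6) and 11.5 ± 0.936 RPM in flat cultures (SD, n = 4), *Loxl3* at 94.9 ± 4.45 and 399 ± 222 RPM, and *Loxl4* at 34.8 ± 6.90 and 73.0 ± 14.0 RPM. *Loxl4* fell just short of 2-fold without reaggregate 3, flat culture 1 or flat culture 3, at log2 fold changes of −0.964, −0.975 and −0.996. *Loxl1*, which acts on elastin, was at 76.5 ± 23.6 and 41.5 ± 23.3 RPM and was not called. The higher genes were *Bmp1*, a protease that activates lysyl oxidase, at 468 ± 170 and 157 ± 66.2 RPM, and *Ctsa* and *Neu1*, lysosomal enzymes that form part of the elastin receptor complex, at 506 ± 36.1 and 235 ± 82.6 RPM and at 71.2 ± 19.2 and 21.9 ± 3.11 RPM.

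Among 7 elastin degrading proteases tested, 3 were higher and none lower. *Mmp2*, a gelatinase that cleaves elastin, was at between 2150 and 2390 RPM in reaggregates and at 244, 317, 518 and 179 RPM in flat cultures 1 to 4 (log2 fold change 2.97, SE 0.249, limma adjusted p = 5.79e-05). *Mmp14*, the membrane protease that activates it, was at between 1810 and 2050 RPM and at 225, 241, 431 and 137 RPM. *Mmp9* was at between 11.3 and 40.4 RPM in reaggregates and at 0.921, 0, 5.99 and 0.121 RPM in flat cultures 1 to 4. Of the 7 proteases tested, 4 were higher in every reaggregate than in every flat culture, beside 7.8% of all genes tested. They were these 3 and *Prtn3*, which was not called (log2 fold change 0.59). *Prtn3* passed the filter through reaggregate 4 alone, at 0.512 RPM, so this count leans upward through it. Summed over libraries, it held 18 reads in reaggregates and 2 in flat cultures.

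**Figure D3:**
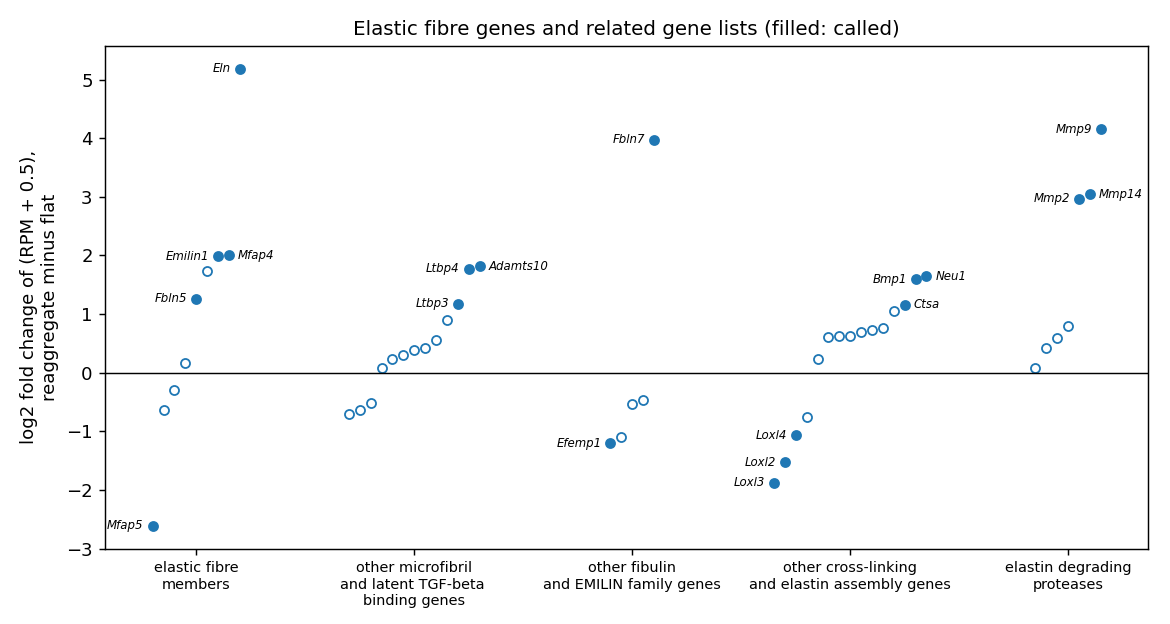
Log2 fold change of (RPM + 0.5), reaggregates minus flat cultures, for each tested gene of the elastic fibre set and of 4 related lists, with genes that were called filled and named. The called genes of the protease list are *Mmp2*, *Mmp9* and *Mmp14*, all higher, and the called relatives of *Lox* are all lower.

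Markers of other cell states also differed between libraries, and their part in the elastic fibre results was not tested. The background of their counts is again 7.32% of all genes higher and 6.53% lower. Of 5 proliferation markers tested all 5 were lower in reaggregates, and their summed level was between 138 and 204 RPM there and 1156, 353, 1038 and 428 RPM in flat cultures 1 to 4, with *Top2a* most abundant. Smooth muscle markers summed to between 204 and 794 RPM in reaggregates and to 270, 2739, 564 and 2822 RPM in flat cultures 1 to 4, with the defining gene *Myh11* at no more than 0.289 RPM. *Acta2* was most abundant in all flat cultures and in reaggregates 3 and 4, and *Smtn* in the other reaggregates. Of 6 tested, *Smtn* was called higher and *Cnn1* lower. Adipocyte markers summed to between 225 and 650 RPM in reaggregates and to 335, 1197, 464 and 1338 RPM in flat cultures 1 to 4. *Fabp4* was most abundant in flat cultures 2 and 4, and *Lpl* in the other libraries. Of 5 tested, 2 were lower in reaggregates, and *Adipoq* was at most 0.768 RPM. Stromal markers were called higher for 5 of 6 genes, and summed to between 14080 and 19800 RPM in reaggregates and to 5576, 4134, 11290 and 2251 RPM in flat cultures 1 to 4, with *Col1a2* most abundant. Between the flat cultures, those labelled de Bruijn lab had the lower sums of proliferation and stromal markers and the higher sums of smooth muscle and adipocyte markers. Of 6 osteoblast and chondrocyte markers tested, *Sox9* was higher and *Col2a1* lower in reaggregates. Endothelial markers summed to at most 1.09 RPM and blood cell markers to at most 9.38 RPM, with *Cd68* the most abundant blood cell gene in each library and *Pecam1* the most abundant endothelial gene over all libraries together, and none of the 4 genes tested in these lists was called. With consecutive reaggregates averaged the calls of *Mki67*, *Top2a*, *Smtn*, *Cnn1*, *Fabp4*, *Pparg*, *Vcam1*, *Col1a1* and *Col1a2* were lost, and those of the other markers held. *Smtn*, *Cnn1*, *Fabp4* and *Pparg* were also not called without flat culture 2 or without flat culture 4 (limma adjusted p between 0.0662 and 0.124), or without 1 of several reaggregates, and *Smtn*, *Vcam1* and *Mki67* were not called without flat culture 1.

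Promoters of *Emilin1* and *Fbln5*, which were both higher in reaggregates, are shown over 250 bases before the start of transcription. Sequences were taken from a table of 32851 RefSeq promoters, build GRCm38.p6, and 5 of the 10 genes were matched in that table; *Eln*, *Fbn2*, *Mfap4*, *Mfap5* and *Lox* were not. The motifs searched on both strands were the letters TATAAA of the TATA box, CCAAT of the CCAAT box, GGGCGG of the GC box, TGAGTCA for AP-1, CAGAC for SMAD, CATTCC for TEAD, GCGTGGG for EGR and TGTGGT for RUNX, and capitals mark every match. The *Emilin1* promoter, chr5:30913536-30913785 on the plus strand, held CAGAC at 2 places, 182 and 129 bases before the start. *Fbln5* had 2 starts, with promoters at chr12:101819120-101819369 and chr12:101818485-101818734 on the minus strand. The first held CCAAT and, on the other strand, GGGCGG at 2 places, and the second held CAGAC at 2 places. CAGAC and GGGCGG were not particular to the higher genes. Both were also found before starts of *Efemp2*, which was lower in every reaggregate, and of *Fbln1*, which was not called, and GGGCGG before that of *Fbn1*. CCAAT was found only before *Fbln5* among the 5 genes matched. Over the same 250 bases, CAGAC was found in 42.2% of all promoters, CCAAT in 33.8%, GGGCGG in 32.7%, RUNX in 14.0%, TEAD in 12.6%, TATAAA in 12.4%, AP-1 in 4.46% and EGR in 4.30%. A match describes the sequence and is not a binding site.
Emilin1: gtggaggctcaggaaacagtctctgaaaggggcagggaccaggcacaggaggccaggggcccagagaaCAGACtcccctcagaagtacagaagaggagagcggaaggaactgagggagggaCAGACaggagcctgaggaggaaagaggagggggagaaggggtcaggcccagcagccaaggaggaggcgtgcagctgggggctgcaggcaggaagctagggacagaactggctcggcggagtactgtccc
Fbln5 first start: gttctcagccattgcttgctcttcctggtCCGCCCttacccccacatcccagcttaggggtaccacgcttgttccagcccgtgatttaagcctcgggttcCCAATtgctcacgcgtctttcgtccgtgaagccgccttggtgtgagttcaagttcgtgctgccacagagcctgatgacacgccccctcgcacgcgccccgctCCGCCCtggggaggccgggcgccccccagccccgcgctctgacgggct
Fbln5 second start: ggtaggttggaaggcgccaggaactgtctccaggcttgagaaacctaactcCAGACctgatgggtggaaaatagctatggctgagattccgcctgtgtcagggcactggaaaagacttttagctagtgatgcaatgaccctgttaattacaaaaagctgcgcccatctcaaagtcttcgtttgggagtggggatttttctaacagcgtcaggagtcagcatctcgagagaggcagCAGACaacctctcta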

How the data were processed

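The authors aligned 50 base single-end reads to NCBI37/mm9 with TopHat 1.2.0, shared reads with several alignments between genes, and deposited 1 RPM value for each gene in each library. Their table also holds a log2 fold change and an adjusted p from a DESeq comparison, which were not used. Between 36.5% and 50.6% of values up to 10 RPM were whole multiples of 1 read (within 0.1 read), so no test on counts was run. Groups came from the sample labels. Values were compared with limma 3.58.1 in R 4.3.3 (empirical Bayes with a mean-variance trend, no covariates), and a ratio of genes by an exact permutation test; other steps used Python 3.11.15. Merged exons and coordinates came from GENCODE vM1, of the same assembly but a later release than the authors used. Named were the 10 genes, every called gene of 4 related lists and the 5 genes most like *Eln*; a few further genes were chosen after their values were seen. The genes and lists were chosen with earlier results of these data known. The *Fbn2* to *Fbn1* ratio, also planned, was not computed since *Fbn2* was at 0. Alternatives covered filters, pseudocounts, scalings, the trend, blocks, averaged reaggregates, subsets and single libraries left out. Of these, 2 subsets, and leaving out single libraries in the IL-3 and source comparisons, were added after the data were seen.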

Additional observations from a re-analysis of the deposited data

Results flagged for a closer look

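*Eln* in flat culture 3, at 0.719 RPM, lay far from the other flat cultures, at 0.115, 0 and 0 RPM, when its gap to the nearest of them was set against the range of the 4. It amounts to 6 reads, and all reaggregates were above it. Of 20 groups of values examined in this way, 1 was picked out, and chance gives about 1 in 20.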

How the results depend on the processing

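Over 27 alternative settings, 346 of 416 values kept their direction and side of the threshold, or stayed within 1.5 times for a count. *Eln* was called under all 25 that apply to it (log2 fold change from 4.38 to 6.84), and the *Fbln5* to *Efemp2* log2 ratio kept a difference of 1.51 to 2.28. Where values changed, the cause was not tested. With consecutive reaggregates averaged, 1 member was called higher, 6 genes of the related lists were higher, and 312 genes of all were higher and 429 lower. *Fbln5* (1.26), *Emilin1* (1.99) and *Mfap4* (2.01) lost the call, and averaging equal pairs cannot change a log2 fold change. With the reaggregates without IL-3 alone, 2 members were higher, 345 genes of all higher and 474 lower, and *Fbln5* (1.27) and *Mfap4* (2.23) lost the call. With those given IL-3 alone, 1 member, 5 genes of the related lists and 277 of all were higher, 2 of the lists and 360 of all were lower, and *Fbln5* (1.25), *Emilin1* (1.95) and *Mfap4* (1.78) lost it. Against the de Bruijn lab cultures 2579 genes were higher and 1775 lower, *Fbn1* was called (3.21), *Mfap4* was not (2.01), and *Fbln1* (0.21) and *Lox* (−0.040) changed sign. Against the other flat cultures 2 members and 627 genes of all were higher, and *Fbln5* (0.91) and *Mfap4* (2.01) lost the call. *Mfap4* also lost it with no filter (2.01) and a pseudocount of 1 (1.43), and *Fbn1* gained it with median-ratio scaling (1.72). In settings added after the data were seen, 1898 genes were higher without reaggregates 5 and 6. With reaggregates averaged and set against flat cultures 1 and 3 only, 1 member was higher and 0 lower, 4 genes of the lists higher and 0 lower, 121 of all higher and 399 lower, and *Fbln5* (0.91), *Emilin1* (1.39), *Mfap4* (2.01) and *Mfap5* (−1.91, limma adjusted p = 0.0595) lost the call. Leaving out 1 library gave between 2 and 5 members higher, between 2 and 4 genes of the related lists lower, and between 766 (without flat culture 4) and 2121 (without flat culture 3) genes of all higher. The log2 fold change then lay between 1.03 and 2.39 for *Fbn1*, between 0.96 and 1.44 for *Fbln5*, between 1.60 and 2.35 for *Mfap4*, and between −0.0016 (without flat culture 1) and 0.36 for *Lox*. The 1 member called between labels of flat cultures became 0 with no filter, a pseudocount of 0.1, median-ratio scaling, no trend or any 1 library left out, and 2 with quantile normalization or a fit of all 10 libraries. The replicate block, with numbers 1 to 4 of the titles as a block, also leaves out reaggregates 5 and 6; it gave 4 members higher and 1 lower, and 1884 genes of all higher, beside 4, 1 and 1898 for the same 8 libraries with no block. Deviations of same-numbered libraries correlated at 0.166, −0.16, −0.124 and 0.185, and not every library correlated best with its own number. The check gave no sign that the numbers pair the libraries, but deviations from a mean of only 4 libraries cannot exclude it. The depth limits *Mfap4*, *Mfap5* and, in flat cultures, *Eln*, which rest on few reads.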
